A study of Mus musculus with 6 samples.

Results

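The aminoacyl-tRNA synthetases are the enzymes that load each transfer RNA with its amino acid. They were taken from the deposited gene table by symbol, as a single-letter amino acid code followed by "ars", with Eprs and Ears2 added. The pattern found 37 of the 27179 listed genes, 20 for cytosolic enzymes and 17, with symbols ending in 2, for mitochondrial enzymes. The RNA came from small-intestinal organoids of wild-type (WT) mice, which are cultures of epithelial cells that bud like crypts, kept in Matrigel with Intesticult medium. T3, the active thyroid hormone, was given at 1e-07 M over 17 h to one group and its vehicle to the other, with 3 libraries in each. The labels give neither the age of the animals nor the origin of each replicate. If replicates share an animal, the p-values leave out the spread between animals. If replicates also share a culture, the p-values reflect technical spread alone.

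Protein synthesis runs on separate sets of charged tRNAs in the cytosol and in the mitochondrion. Most amino acids have a nuclear gene for each compartment, and the mitochondrial enzymes are made in the cytosol and imported. Gars and Kars each encode both forms from a single gene, and Qars has no mitochondrial partner, because mitochondria make glutaminyl-tRNA by amidating glutamate already attached to the tRNA. Many cytosolic synthetase genes are known targets of ATF4, the transcription factor of the amino acid and endoplasmic reticulum stress response.

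Values are reads per gene, scaled between libraries by the authors and rounded, and are called normalized reads here. Column totals were 29510422 to 29974091 in the T3 libraries and 28197080 to 28611883 in the vehicle libraries. Markers of intestinal epithelium summed to 178181 to 184247 normalized reads with T3 and 153282 to 159301 with vehicle, and 5 of the 10 markers rose and 1 fell, where limma called 24.0% of all genes tested higher and 20.8% lower at an adjusted p under 0.05. Of 13 markers of immune, endothelial, mesenchymal, neural and blood cells, 8 stayed under 20 normalized reads in every library and 3 of these were listed at 0. Those 13 markers together summed to 332 to 420 with T3 and 410 to 488 with vehicle, and limma called none of the 5 that could be tested (0 at an unadjusted p under 0.05, and 0 in the authors' deposited table). In bulk RNA, fewer cells of a type and less RNA per cell cannot be told apart. All 37 synthetase genes passed the filter on low values, which asked for at least 10 normalized reads in at least 3 libraries.

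Per kilobase of exon, the cytosolic synthetases together stood well above the mitochondrial ones in both groups. Summed over the 20 cytosolic genes, the level was 51953, 52820 and 53061 normalized reads per kb in T3 replicates 1 to 3, against 46849, 46830 and 48399 in vehicle replicates 1 to 3. The 17 mitochondrial genes summed to 11332, 12143 and 11635 per kb with T3, against 14907, 14767 and 13793 with vehicle. The T3 libraries were thus all higher in the cytosolic sum and all lower in the mitochondrial sum. The mitochondrial sum came to 21.8, 23.0 and 21.9% of the cytosolic sum with T3 and to 31.8, 31.5 and 28.5% with vehicle. Lars2 alone supplied 29.2 to 35.2% of the mitochondrial sum with T3 and 36.4 to 43.5% with vehicle. Without Lars2 the share was 15.5, 14.9 and 15.3% with T3 against 17.97, 18.4 and 18.1% with vehicle. These sums were not tested.

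Among cytosolic genes the asparaginyl enzyme gene Nars was the most abundant per kb, at 7920 ± 210 with T3 and 6233 ± 172 with vehicle (SD, n = 3 each), and Gars followed. The lowest over all 6 libraries was Cars, for cysteine, at 1295 ± 41.6 per kb with T3 and 1027 ± 21.3 with vehicle, although with T3 alone Wars was lower, at 1188. Mitochondrial genes ranged more widely. Lars2, for leucine, was at 3703 per kb with T3 and 5883 with vehicle, and Iars2, next in order, at 1392 and 1559. Lars2 had a coefficient of variation of 13.8% among T3 libraries and 13.0% among vehicle libraries. The part of ribosomal RNA content in the level of Lars2 was not tested. Pars2, for proline, was lowest at 109 ± 4.12 with T3 and 117 ± 16.2 with vehicle, with single libraries at 349, 325 and 330 normalized reads with T3 and 315, 353 and 414 with vehicle. Those groups overlapped.

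Cytosolic synthetase genes moved upward in part. Of 20 tested, 8 rose (40.0%), 1 fell and 11 were not called by limma at a Benjamini-Hochberg adjusted p under 0.05 over all genes. Of all 13052 genes tested, 44.8% were called, 24.0% as higher with T3 and 20.8% as lower. The median log2 fold change was 0.07, beside -0.01 over all genes. With upper-quartile scaling the median was 0.014, beside -0.07 over all genes, and with equal column totals 0.0055, beside -0.08, and 3 cytosolic genes were then called lower. Without Gars and Kars, which serve both compartments, 7 of 18 rose (38.9%). All rises were small, between 1.14-fold and 1.32-fold. The T3 and vehicle libraries did not overlap at 10 of the 20 genes with T3 higher and at 1 with T3 lower. Over all genes 54.9% did not overlap, 28.4% with T3 higher and 26.5% with T3 lower.

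Aars, for alanine (gene ID 234734, mm10 chromosome 8, 111033967 to 111056870, plus strand, 21 exons), showed the largest rise. It stood at 8618, 8933 and 8739 normalized reads in T3 replicates 1 to 3 and at 6515, 6440 and 6991 in vehicle replicates 1 to 3. Every T3 library was above every vehicle library (log2 0.40 ± 0.04 SE, 1.32-fold, limma adjusted p = 5.11e-05). Nars had 20478, 21582 and 20907 with T3 and 16039, 16568 and 16949 with vehicle (1.27-fold, limma adjusted p = 0.000118). Cars (chromosome 7, 143557230 to 143600090) had 4086, 4327 and 4105 with T3 and 3231, 3329 and 3363 with vehicle (1.26-fold, limma adjusted p = 0.000109). Its T3 libraries, like those of Nars, were all above the vehicle range.

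Gars, the glycyl enzyme of both compartments (chromosome 6, 55038001 to 55079504), had 12013, 12514 and 11788 with T3 and 9447, 9645 and 10043 with vehicle (log2 0.32 ± 0.04 SE, limma adjusted p = 0.000196). Mars, for methionine, which also charges the initiator tRNA (chromosome 10, 127296221 to 127311786), had 6076, 6156 and 6045 with T3 and 4852, 4901 and 4937 with vehicle (1.24-fold, limma adjusted p = 5.83e-05). Mars was the tightest of the risen genes, with a coefficient of variation of 0.940% among T3 libraries and 0.871% among vehicle libraries. Yars, for tyrosine, rose 1.18-fold to 4173 ± 175 against 3520 ± 84.2 with vehicle (SD, n = 3 each), and Rars, for arginine, rose 1.17-fold. Sars, for serine, was the smallest rise at 1.14-fold, with 8734 ± 329 and 7651 ± 326 (limma adjusted p = 0.00682).

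**Figure D1:**
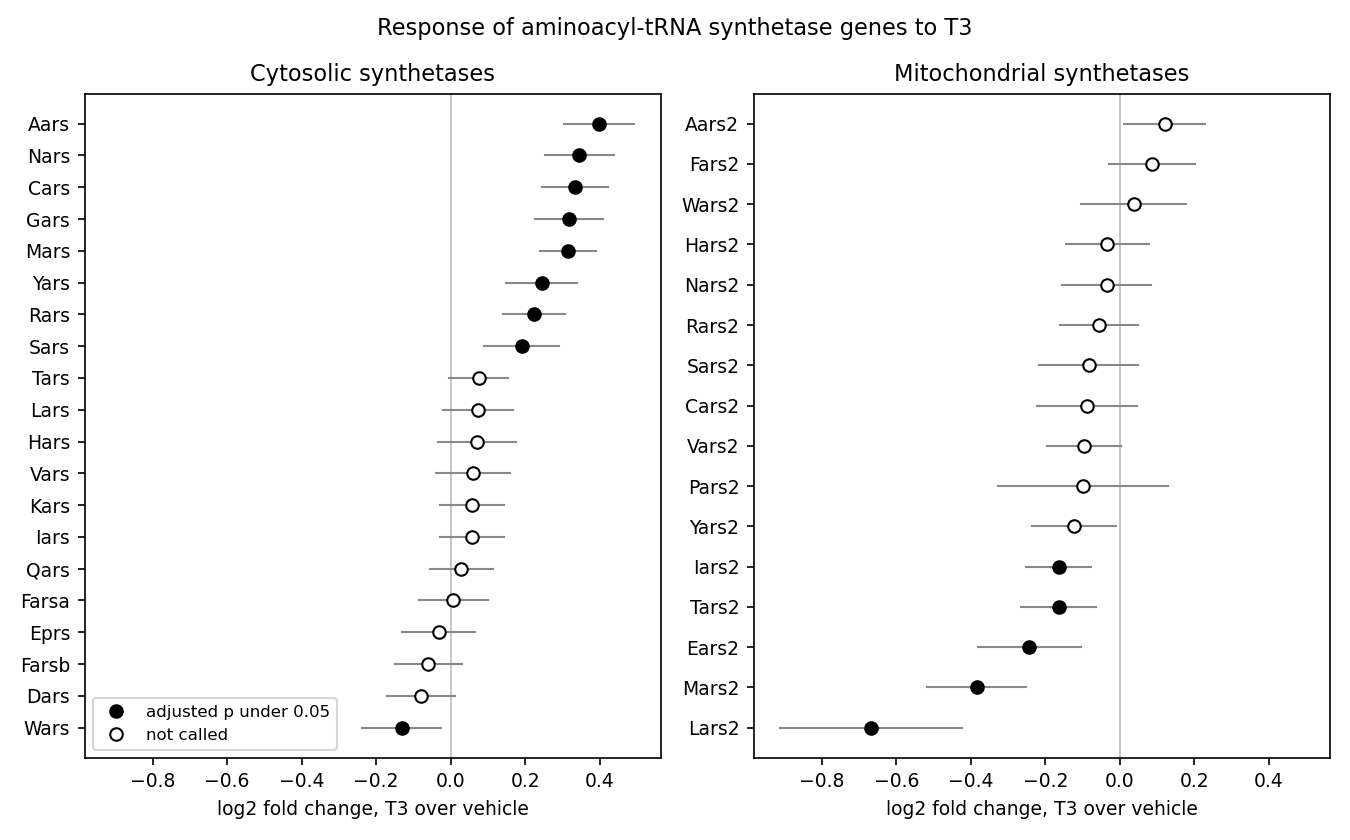
Log2 fold change of each synthetase gene, T3 over vehicle, for cytosolic enzymes (left) and mitochondrial enzymes (right). Points are limma estimates over 3 libraries per group, lines are 95% confidence intervals, and filled points passed an adjusted p under 0.05. The 8 called rises, up to 0.40, are all in the left panel and include Gars, the glycyl enzyme of both compartments. The called falls shown are 5 mitochondrial genes, down to -0.67, and Wars. The plot shows 16 of the 17 mitochondrial genes.

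Exons of several of these genes overlap those of neighbours, and the sources used here do not give whether counting used the strand. Aars shares 532 bases, or 10.9% of its exon length, with Exosc6 on the same strand, and Exosc6 was at 966, 922 and 979 normalized reads with T3 and 1098, 995 and 1204 with vehicle, lower while Aars was higher. Mars shares 68 bases with Ddit3 and Yars 30 bases with C77080, both on the opposite strand. Ddit3 had 558, 702 and 380 with T3 and 330, 389 and 387 with vehicle, and C77080 rose by 0.67 on the log2 scale. The part of shared reads in these rises was not tested.

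Wars, for tryptophan, a gene known to be induced by interferon, was the exception. It had 3421, 3454 and 3403 normalized reads with T3 and 3598, 3659 and 4017 with vehicle, lower in every T3 library (log2 -0.13 ± 0.05 SE, limma adjusted p = 0.0441). The call was lost in 10 of 18 alternative settings, 5 of them leaving out any single library other than vehicle replicate 1 (highest adjusted p = 0.116), and the authors' deposited table does not call it (adjusted p = 0.0718).

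The other 11 cytosolic genes were not called. Their log2 fold changes were at most 0.08 in size, their adjusted p-values ran from 0.113 (Tars) to 0.902 (Farsa), and their 95% intervals lay between -0.17 and 0.18. Eprs, the fused glutamyl and prolyl enzyme, stood at 11169 ± 84.0 with T3 and 11431 ± 562 with vehicle (SD, n = 3 each). Farsa and Farsb, the subunits of the phenylalanyl enzyme, were at 2433 and 5772 with T3 and 2420 and 6013 with vehicle. Kars, the lysyl enzyme of both compartments, was at 6142 ± 194 and 5902 ± 111, and Tars, Lars, Hars, Iars, Vars and Qars had positive estimates of 0.03 to 0.08, although those of Kars, Iars, Vars, Qars and Farsa turned negative with equal column totals. Dars, for aspartate, had an estimate of -0.08.

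The called genes were spread over both structural classes of the enzymes. Of 9 cytosolic class I genes 4 rose (44.4%) and Wars fell, where 24.0% of all genes rose and 20.8% fell. Of 10 class II genes 4 rose (40.0%) and none fell (0 at an unadjusted p under 0.05, and 0 in the authors' deposited table). Dars and Farsb were, however, called lower under either other scaling (equal column totals or upper quartile). Dars was also called lower without vehicle replicate 3 (limma adjusted p = 0.0449). Eprs belongs to both classes. Of the 8 enzymes held in the multi-synthetase complex, a cytosolic assembly of synthetases, 2 rose (Mars and Rars), and of the 12 outside it 6 rose. The medians were 0.06 inside and 0.13 outside, and the difference between these groups was not tested.

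Mitochondrial synthetase genes moved downward in part. Of 17 tested, 6 fell (35.3%, where 20.8% of all genes fell), 11 were not called and limma called none higher (1, Aars2, at an unadjusted p under 0.05, and 0 in the authors' deposited table). The median log2 fold change was -0.10, beside -0.01 over all genes. Of the 17 estimates 14 were below 0, as were 6700 of those for all 13052 genes. The groups did not overlap at 8 genes with T3 lower and at 1, Aars2, with T3 higher. Over all genes 26.5% did not overlap with T3 lower and 28.4% with T3 higher.

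Mars2, the mitochondrial methionyl enzyme (gene ID 212679, mm10 chromosome 1, 55237177 to 55240058, 1 exon), had 823, 763 and 865 normalized reads with T3 and 1073, 1030 and 1093 with vehicle. It fell 1.30-fold (log2 -0.38 ± 0.06 SE, limma adjusted p = 0.000605), with no overlap between groups. Ears2, which charges tRNA with glutamate (chromosome 7, 122038821 to 122067063), fell 1.18-fold to 651 ± 27.8 against 771 ± 38.8 with vehicle (SD, n = 3 each). Both Iars2, for isoleucine, and Tars2, for threonine, fell 1.12-fold. The call of Tars2 (limma adjusted p = 0.0141) was lost without T3 replicate 1 (0.0509) and without T3 replicate 2 (0.0566). Iars2 shares 85 exon bases with Rab3gap2 on the opposite strand, itself not called (limma adjusted p = 0.231).

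Lars2, the mitochondrial leucyl enzyme (gene ID 102436, mm10 chromosome 9, 123366940 to 123462664, 21 exons), showed the largest fall. It had 12827, 16602 and 13680 normalized reads in T3 replicates 1 to 3 and 25190, 23809 and 19498 in vehicle replicates 1 to 3. It fell 1.59-fold (log2 -0.67 ± 0.11 SE, limma adjusted p = 0.000829), with no overlap, and the call held in all 18 alternative settings run. The entries for ribosomal RNA moved the same way between the groups. Rn45s, the ribosomal RNA precursor, had 92112, 112783 and 84666 with T3 and 137677, 146997 and 121279 with vehicle (log2 -0.49 ± 0.11 SE, limma adjusted p = 0.00497). Rn18s, the small subunit ribosomal RNA, had 4233, 5181 and 3889 with T3 and 7009, 8101 and 5657 with vehicle. For Lars2 as for both of these entries, T3 replicate 2 was the highest T3 library and vehicle replicate 3 the lowest vehicle library. The other ranks differed: the lowest T3 library was replicate 1 for Lars2 and replicate 3 for both entries, and the highest vehicle library was replicate 1 for Lars2 and replicate 2 for both entries. The mitochondrial ribosomal RNAs Rnr1 and Rnr2 were not called (limma adjusted p = 0.146 and 0.789). As a percentage of Rn45s, Lars2 stood at 13.93, 14.72 and 16.16 with T3 and at 18.30, 16.20 and 16.08 with vehicle. Those percentages overlapped between the groups. The part of ribosomal RNA content in the fall of Lars2 was not tested. Without Lars2 5 of 16 mitochondrial genes fell (31.2%, where 20.8% of all genes fell), with a median of -0.09.

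**Figure D2:**
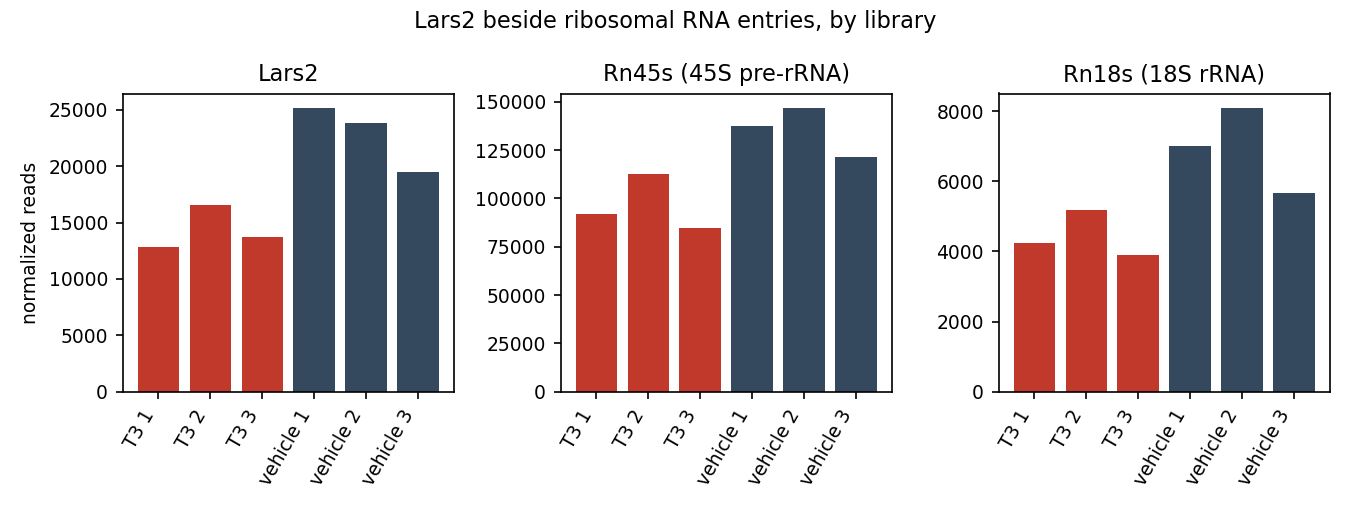
Normalized reads of Lars2 and of the ribosomal RNA entries Rn45s and Rn18s, 1 bar per library, with T3 libraries in red and vehicle libraries in dark blue. All 3 T3 bars lie below all 3 vehicle bars in each panel, and T3 replicate 2 is the highest T3 bar in each.

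The remaining 11 mitochondrial genes were not called, with adjusted p-values of 0.0709 (Aars2) to 0.668 (Wars2) and 95% intervals between -0.33 and 0.23. Aars2, for alanine, stood at 1131 ± 44.2 with T3 and 1040 ± 9.64 with vehicle (SD, n = 3 each), and Fars2 and Wars2 also had positive estimates, of 0.09 and 0.04, that of Wars2 turning negative with equal column totals. Yars2 and Vars2, at -0.12 and -0.10, were separated between groups without being called, and both were called lower with upper-quartile scaling (limma adjusted p = 0.0127 and 0.0181). Estimates for Pars2, Cars2, Sars2, Rars2, Nars2 and Hars2 lay between -0.10 and -0.03.

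**Figure D3:**
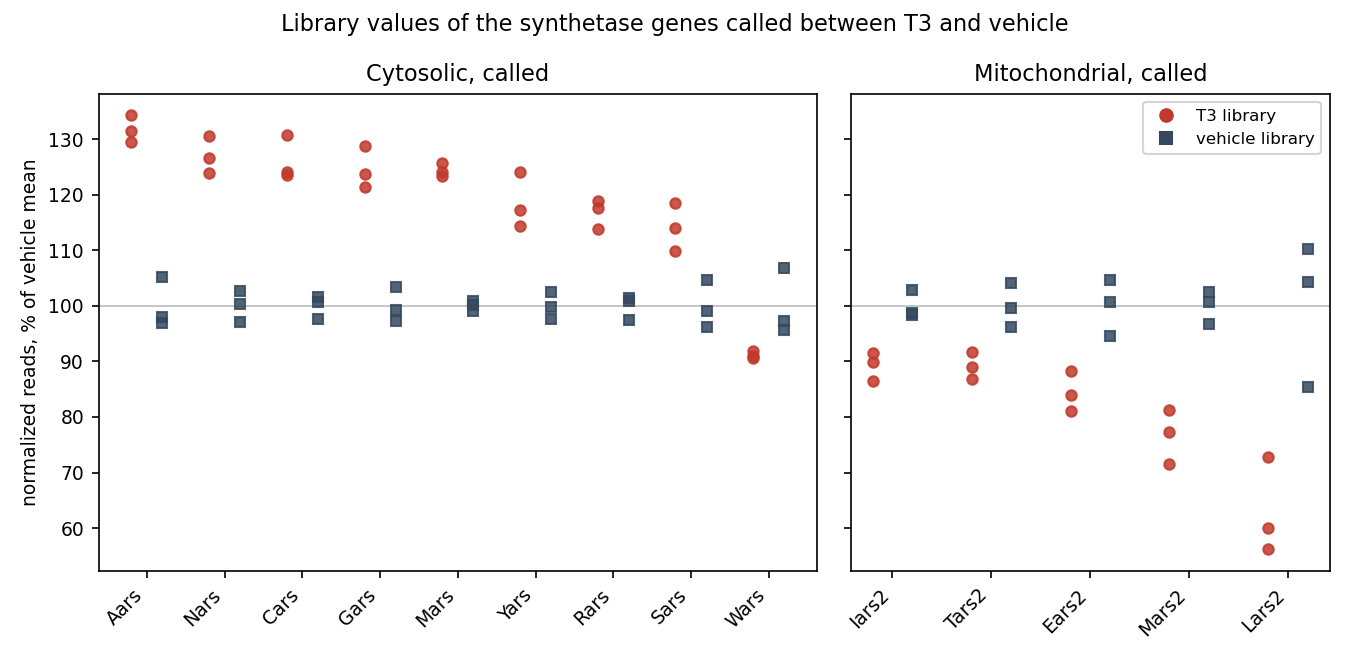
Normalized reads of 14 of the 15 called synthetase genes as a percentage of each gene's vehicle mean, with T3 libraries as red circles and vehicle libraries as dark blue squares. T3 libraries lie above every vehicle library for the 8 risen cytosolic genes, and below every vehicle library for Wars and the 5 mitochondrial genes shown.

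The authors' deposited table, a comparison of the same 6 libraries, called 8 cytosolic genes higher and 0 lower, and 6 mitochondrial genes lower and 0 higher, at the same threshold. The authors' deposited table called 19.3% of all genes with an adjusted p higher and 15.8% lower. Its 14 synthetase calls were all made by limma in the same direction, and Wars was called by limma alone.

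To set the compartments against each other without any scaling between libraries, the mitochondrial gene was divided by its cytosolic partner for the same amino acid within each library. There are 18 such pairs, in which Eprs and Fars2 each serve in more than 1. The ratio was lower with T3 in 15 pairs. In 13 of them every T3 library was below every vehicle library, while no pair was separated the other way. Of all single genes, 26.5% did not overlap with T3 lower and 28.4% with T3 higher. The share among ratios of other genes was not computed. The ratios use the same values as the calls of single genes, so they are not separate support. The design of 3 against 3 libraries cannot give an exact permutation p under 0.1, which those 13 pairs reached (two-sided, adjusted p = 0.139 over 18 pairs), so none passed a threshold of 0.05.

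The widest shifts were for leucine and methionine. The log2 ratio of Lars2 over Lars per kb was 1.40, 1.72 and 1.37 with T3 and 2.39, 2.34 and 1.99 with vehicle. The part of ribosomal RNA content in this Lars2 shift was not tested. Mars2 over Mars was at -2.84, -2.97 and -2.76 with T3 and at -2.14, -2.21 and -2.13 with vehicle, a difference of -0.70, or a ratio 0.616 times that with vehicle. Here both partners moved, Mars2 downward and Mars upward. Cars2 over Cars differed by -0.42, Nars2 over Nars by -0.38 and Yars2 over Yars by -0.37, and in these pairs, as in those of Rars, Aars and Sars, the cytosolic gene alone was called. The mitochondrial gene alone was called in the pairs of Lars2, Tars2, Iars2 and Ears2, while for valine neither was. Pairs with overlapping groups were those for histidine, proline, phenylalanine (both subunits) and tryptophan, and Wars2 over Wars had a positive difference of 0.17.

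**Figure D4:**
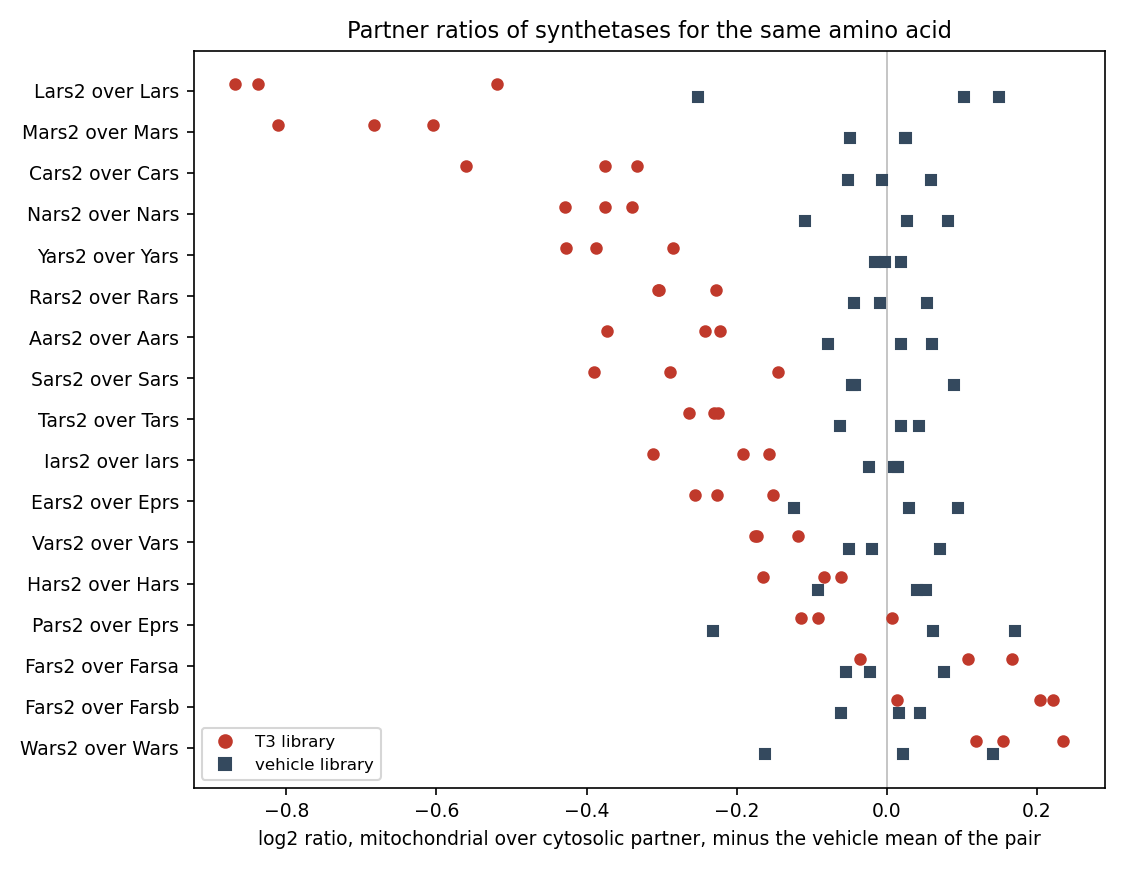
Log2 ratio of the mitochondrial to the cytosolic synthetase gene for the same amino acid, minus the vehicle mean of the pair, with 1 point per library (T3 red circles, vehicle dark blue squares). In 12 of the 17 pairs shown the T3 libraries all lie to the left of the vehicle libraries.

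Other genes of tRNA charging were examined by list. Of the 3 scaffold proteins of the multi-synthetase complex, Aimp1 fell 1.07-fold (limma adjusted p = 0.0389), a call lost in 9 of 18 alternative settings, 5 of them leaving out any single library other than vehicle replicate 3. Aimp2 and Eef1e1 were at -0.07 and -0.03 and not called. Of 12 further genes of aminoacylation and its proofreading, 3 rose and 3 fell (25.0% each way), near the 24.0% and 20.8% over all genes. Qrsl1, the catalytic subunit of the mitochondrial glutaminyl-tRNA amidotransferase, rose 1.33-fold to 821 ± 12.1 against 619 ± 43.7 with vehicle (SD, n = 3 each), while Gatb, another subunit of that enzyme, fell 1.16-fold. The D-aminoacyl-tRNA deacylases Dtd1 and Dtd2 fell 1.23-fold and 1.28-fold, and Sepsecs, which makes selenocysteinyl-tRNA, rose 1.17-fold.

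Of 18 genes of mitochondrial tRNA maturation, some of which also act on cytosolic tRNAs, 6 fell (33.3%, where 20.8% of all genes fell). Limma called none of the 18 higher (0 at an unadjusted p under 0.05, and 0 in the authors' deposited table). Hsd17b10, a subunit of mitochondrial RNase P, fell 1.23-fold to 2363 ± 92.8 against 2917 ± 72.6 with vehicle (SD, n = 3 each). Qtrt1 and Qtrtd1, the subunits of the queuine tRNA-ribosyltransferase, fell 1.31-fold and 1.20-fold, and the tRNA methyltransferase gene Nsun2 fell 1.15-fold. Of 11 mitochondrial translation factors 2 rose (18.2%) and 1 fell (9.09%), below the 24.0% and 20.8% over all genes. The elongation factor gene Gfm1 rose 1.27-fold and the initiation factor gene Mtif3 1.20-fold, while Mrrf, for ribosome recycling, fell 1.14-fold, a call lost in 5 of 18 alternative settings, among them without T3 replicate 2 and without vehicle replicate 2. Among 7 tested genes listed for cytosolic elongation, which include the kinase gene Eef2k, 3 fell (42.9%, where 20.8% of all genes fell). The median was -0.20, and limma called none of the 7 higher (0 at an unadjusted p under 0.05). The authors' deposited table called 5 of the 7 lower, where it called 15.8% of all genes lower, and 0 higher. Eef1b2, Eef1d and Eef1g, which encode the exchange factor that recharges the carrier of aminoacyl-tRNA, fell 1.18-fold, 1.17-fold and 1.18-fold.

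Of 23 ATF4 and amino acid response genes, 11 rose (47.8%, where 24.0% of all genes rose) and 6 fell (26.1%, where 20.8% of all genes fell), with a median log2 fold change of 0.18. Eif2ak3, the endoplasmic reticulum stress kinase, rose 1.62-fold, with 1935, 1768 and 1632 normalized reads with T3 and 1086, 1129 and 1071 with vehicle. Chac1, which degrades glutathione, rose 1.60-fold and Mthfd2, a mitochondrial folate enzyme, 1.28-fold. Phgdh, the first enzyme of serine synthesis, fell 1.42-fold. Atf4 itself averaged 11275 ± 365 with T3 and 9487 ± 423 with vehicle (SD, n = 3 each), and Asns, the asparagine synthetase gene, rose 1.20-fold. Besides Phgdh, the falls were Nupr1 (1.59-fold), Cebpb (1.43-fold), Ddit4 and Sesn2 (1.21-fold each) and Eif2ak4 (1.14-fold). The remaining 6 genes were not called, so the list did not move in 1 direction.

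**Figure D5:**
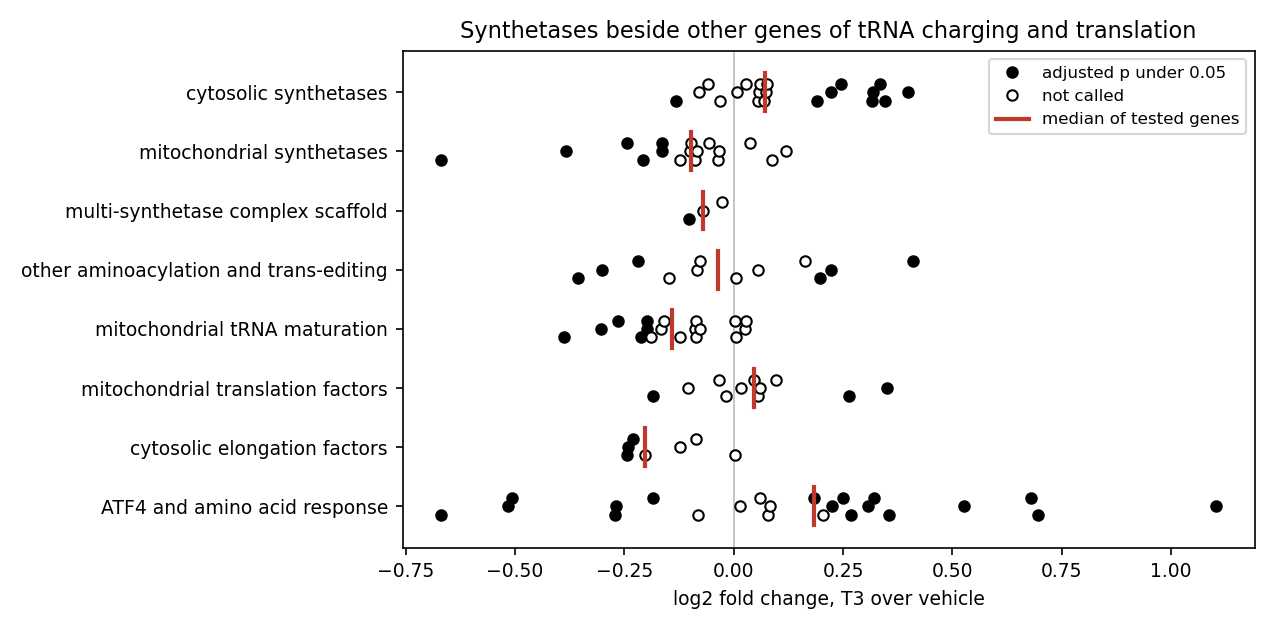
Log2 fold changes, T3 over vehicle, of synthetase genes and of other genes of tRNA charging and translation, 1 point per gene, filled where the adjusted p was under 0.05, with the median of each list as a red line. Medians are 0.07 for cytosolic and -0.10 for mitochondrial synthetases, and -0.14 for mitochondrial tRNA maturation.

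Promoter sequences from RefSeq on GRCm38.p6, running from 250 bases before to 50 bases after each start, were matched for 27 of the 37 genes by gene ID. They were searched on both strands for TGATGNAA, the core of the amino acid response element that ATF4 binds with C/EBP partners. Of all 32851 promoter windows of this length, 3.97% hold it. Among matched cytosolic genes it was found in 3 of the 5 that rose (Aars, Gars and Yars) and in 2 of the 8 not called (Iars and Tars). It was found in none of the 14 matched mitochondrial genes, of which 5 fell. The thyroid hormone response element known as DR4, a direct repeat of AGGTCA with a spacer, was searched only without mismatches. That exact form was found in none of the 27 genes and in 0.0152% of all windows (5 of 32851). At so low a rate, its absence from the 27 genes says nothing about them. A match is a description of the letters in the window and not a measured site. The windows around 4 of the matches, shown for comparing the flanks of the element between genes that rose and genes that were not called, read as follows on the gene's own strand, with the element in capitals.
Gars, rose, chr6:55037959-55037990, plus strand: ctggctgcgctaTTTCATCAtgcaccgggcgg
Yars, rose, chr4:129189894-129189925, plus strand: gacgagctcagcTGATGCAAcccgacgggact
Iars, not called, chr13:49682125-49682156, plus strand: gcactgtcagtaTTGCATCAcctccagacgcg
Tars, not called, chr15:11399654-11399685, minus strand: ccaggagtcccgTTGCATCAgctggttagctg
The element begins 30 bases before the RefSeq start in Gars and 15 before it in Tars, and at base 4 after it in Yars and base 8 in Iars. In Iars and Tars the letters are the same, TTGCATCA, and Yars carries their reverse complement, TGATGCAA.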

How the data were processed

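The authors used STAR, Subread and DESeq2, per the submitters' processing notes, with versions and the strand setting not given in the sources used here. Libraries were directional, per the labels' protocols, and the build is mm10, per the file headers. The sample values deposited by the authors are a score: read numbers per gene, scaled and rounded, since the deposited mean column equalled the mean of the 6 columns within 0.833. They are not raw counts, so no count model was applied. Exon lengths, log2 fold changes with a standard error score, and p-values with adjusted p-values were also deposited by the authors.

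Fits used limma 3.58.1 and statmod 1.5.0 in R 4.3.3 on log2(value + 1) with a mean-variance trend, over the 13052 genes that reached 10 normalized reads in 3 or more libraries. This understates changes of low genes. Adjusted p-values are Benjamini-Hochberg over these genes, called under 0.05. The fit was also run on simulated data, with the same spread set for all genes. Many changes reported here are smaller than any simulated, so that run does not vouch for them. Depth is given as scaled column totals, and the reads behind them are unknown. Mean chi-square per gene between replicates was 4.04 to 11.8, above sampling noise, so no library was a copy of another. T3 replicate 3 stood apart, at 11.0 and 11.8 from T3 replicates 1 and 2, which were at 4.17 from each other. Without T3 replicate 3, 5895 genes were called, against 5851 with all libraries and 4497 to 5395 without any other single library. Each library was kept. Library values are printed for called members with an absolute log2 fold change of at least 0.3 and for the highest and lowest member per kb in each compartment, and for Wars, chosen after its values were seen. In other lists up to 4 called genes with the smallest p are named. Overlapping genes, Aimp2, Eef1e1, Gatb, Eef2k, Asns, Atf4, Ddit3 and the ribosomal RNA entries were named after their values were seen. So were Nupr1, Cebpb, Ddit4, Sesn2, Eif2ak4, Atf3, Slc3a2, Psph, Psat1 and Cebpg. Values of 1 member and 2 promoter windows are not reported here, though counts and sums include them. Members and lists were chosen with earlier results of these data known.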

Additional observations from a re-analysis of the deposited data

How the results depend on the processing

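The 8 cytosolic rises were called in all 18 alternative settings run: 2 scalings, 2 filters, 2 pseudocounts, 2 thresholds, 2 variance models, a replicate block, 6 fits without a library and the authors' deposited comparison. Mitochondrial calls lower numbered 5 to 8. With upper-quartile scaling the median log2 fold change was 0.014 for cytosolic and -0.154 for mitochondrial genes, with equal column totals 0.0055 and -0.163, and 3 cytosolic genes (Wars, Dars and Farsb) were called lower with either. The median of all genes was then -0.07 and -0.08. Cytosolic calls lower were 0 with no filter, without the trend, with the replicate block, in the authors' deposited comparison and at a threshold of 0.01, and 0 to 1 without single libraries (without vehicle replicate 3 it was Dars). At 0.1, 1 mitochondrial gene, Aars2, was called higher. Without single libraries the mitochondrial median ranged from -0.132 to -0.074. Estimates of genes not called changed sign as follows. With upper-quartile scaling they were -0.0006 for Kars, -0.0012 for Iars, -0.0208 for Wars2, -0.0288 for Qars and -0.0504 for Farsa. With equal totals they were -0.0066 for Vars, -0.0091 for Kars, -0.0097 for Iars, -0.0293 for Wars2, -0.0373 for Qars and -0.0589 for Farsa. Farsa ranged from -0.0175 to 0.0289 and Pars2 from -0.1921 to 0.0045 without single libraries. The cause was not tested. The replicate block, with replicate numbers as a factor, left 8 cytosolic and 6 mitochondrial calls and ended the call of Wars. Same-numbered libraries correlated at -0.0701, 0.0278 and -0.0568 in their deviations, so the numbers give no pairing. Separated pairs numbered 13 with either other pseudocount and 13 to 15 without single libraries.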
